A study of Mus musculus with 9 samples.

Results

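The GABA-B receptor, its KCTD partners and the GIRK channels it opens were followed through RNA-seq of mouse whole brain. The 8 genes were chosen by name from textbook knowledge of the complex, out of 53465 genes in the count table. The rule itself uses no measured value, but it was set with earlier results of these data known. They are the receptor subunit genes Gabbr1 and Gabbr2, the auxiliary subunit genes Kctd8, Kctd12 and Kctd16, and the potassium channel subunit genes Kcnj3, Kcnj6 and Kcnj9. All 8 passed the filter on low counts, which left 18501 genes for testing.

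The libraries came from male C57BL/6 mice that entered the study at 7 weeks of age, with 3 biological replicates in each of 3 groups. Control mice (CON) were kept on ordinary chow and given saline. Mice with diabetic neuropathic pain (DNP) ate a 60% fat diet for 4 weeks, were made diabetic with streptozotocin, which destroys insulin-producing cells (50 mg/kg on each of 7 days), and were later given saline. The baclofen group (BAC) had the same diet and streptozotocin and was then injected with baclofen at 8 mg/kg on each of 7 days. DNP and BAC mice therefore shared the diabetes, and only BAC mice received the drug. Only mice with fasting glucose of at least 16.7 mmol/L and lowered pain thresholds 4 weeks after streptozotocin entered DNP and BAC. DNP against CON therefore joins diet, streptozotocin, diabetes, pain and this selection, which cannot be told apart. BAC against DNP addresses the drug, and the 6 diabetic libraries together were also set against CON.

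The GABA-B receptor is the G protein-coupled receptor for the inhibitory transmitter GABA and the target of baclofen. It works only as a pair: the GABA-B1 subunit binds GABA or baclofen, and the GABA-B2 subunit couples to the G protein and brings its partner to the cell surface. KCTD proteins sit on GABA-B2 and set how fast the response starts and fades. The released G protein beta-gamma dimer opens GIRK channels, which let potassium out of the neuron and quieten it, and it also slows calcium channels at nerve endings.

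Promoter sequence is shown for 4 of the genes, to set the subunit pair side by side and to place next to them 2 promoters of another make-up. The sequences are RefSeq bases on GRCm38.p6 upstream of the annotated start, read 5′ to 3′ on the gene's strand, with bases inside annotated exons left out. Capitals mark matches to the GC box (GGGCGG), the cyclic AMP response element (TGACGTCA), the E-box (CAGCTG), the TATA box (TATAAA) and the CCAAT box, searched on both strands.
Gabbr1 chr17:37045716-37045965 (+): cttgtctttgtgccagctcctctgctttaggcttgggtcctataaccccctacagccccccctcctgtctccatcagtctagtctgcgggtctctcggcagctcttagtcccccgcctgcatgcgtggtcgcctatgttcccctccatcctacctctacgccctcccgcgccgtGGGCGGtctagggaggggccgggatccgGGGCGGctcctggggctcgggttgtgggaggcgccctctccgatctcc
Gabbr2 chr4:46991874-46991964 (-): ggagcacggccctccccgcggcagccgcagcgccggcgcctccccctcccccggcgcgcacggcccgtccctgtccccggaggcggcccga
Kctd8 chr5:69341710-69341959 (-): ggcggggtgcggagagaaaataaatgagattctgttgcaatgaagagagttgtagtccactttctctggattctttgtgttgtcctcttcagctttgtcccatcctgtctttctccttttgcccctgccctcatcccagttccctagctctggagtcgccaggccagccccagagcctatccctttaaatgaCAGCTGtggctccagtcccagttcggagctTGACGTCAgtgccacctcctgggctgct
Kcnj9 chr1:172329323-172329572 (-): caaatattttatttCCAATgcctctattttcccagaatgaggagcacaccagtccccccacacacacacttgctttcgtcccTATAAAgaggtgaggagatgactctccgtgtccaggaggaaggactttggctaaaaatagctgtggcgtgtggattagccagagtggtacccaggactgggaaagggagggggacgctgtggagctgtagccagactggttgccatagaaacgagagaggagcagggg

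Over the 250 bases upstream of the start, the Gabbr2 promoter was 80.8% G or C with 37 CpG dinucleotides, and the Gabbr1 promoter was 66.0% with 16. The medians over 32851 promoter windows of the same length were 52.4% and 6. Both subunit genes had 2 GC boxes, a motif held by 32.7% of the windows, but those of Gabbr2 lay inside exon bases that are not printed. Kctd12 had 7 GC boxes. Kctd8 held the whole cyclic AMP response element 28 bases before its start, a motif present in 1.55% of the windows, and an E-box, present in 13%. Kcnj9 held a TATA box 168 bases before its start (12.4% of windows) and a CCAAT box (33.8%). The first promoter of Kcnj6 held none of these motifs. These matches describe letters only, and no binding was measured.

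The libraries held 13107382 to 16008129 counts each. Although all were labelled whole brain, markers of brain regions differed widely between them. Gabra6, a cerebellar granule cell gene, was at 2.79, 344 and 51.6 CPM in CON replicates 1 to 3, 31.3, 0 and 0 CPM in DNP and 204, 0 and 60.1 CPM in BAC. DNP replicate 1 and BAC replicates 1 and 3 had 164 to 288 CPM of Slc6a5, the glycine transporter of brainstem and spinal cord neurons, against 0.131 to 28.3 CPM in the other 6 libraries. The summed level of 6 oligodendrocyte markers was 2111 to 2955 CPM in CON, 3539 to 8906 in DNP and 2850 to 9087 in BAC, and that of 8 pan-neuronal markers was 4832 to 6738, 5847 to 6801 and 5484 to 5987. Summed midbrain dopamine neuron markers were 11.31 to 18.32 CPM in CON, 21.15 to 135 in DNP and 29.41 to 276 in BAC, with every diabetic library above CON. Singly, Slc18a2 and Ddc kept the diabetic and CON libraries apart, while Th and Slc6a3 did not. Slc6a3 was at 0.133, 0 and 0.281 CPM in CON, 9.63, 4.44 and 0.263 in DNP and 0.145, 0.967 and 56.6 in BAC. Region make-up was addressed only by fits without some of these libraries and by a fit with cerebellar and brainstem marker scores as covariates, and the part of dopamine neuron and oligodendrocyte markers was not tested. In such bulk tissue fewer cells of a type and less RNA per cell cannot be told apart.

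Compared per length, as FPKM, the subunits of the receptor stood at the top of the set in CON, with Gabbr1 at 57.2 ± 1.36 and Gabbr2 at 56.4 ± 4.40 (SD, n = 3). Kcnj9 followed at 31.0 ± 1.41 FPKM and Kctd12 at 27.3 ± 13.8. Kctd16 was at 9.78 ± 6.74, Kcnj3 at 4.04 ± 0.448, Kctd8 at 3.76 ± 2.47 and Kcnj6 at 3.48 ± 1.10 FPKM. Gabbr1 and Gabbr2 did not differ beyond their spread, nor did Kcnj9 and Kctd12, nor the last 4 genes among themselves. The lengths behind these FPKM values, recovered from count and FPKM, were 13179 bases for Gabbr1, 7345 for Gabbr2, 1349 for Kctd16 and 10745 for Kcnj3, against 7764, 6686, 3477 and 5215 bases of annotated exons. The near equality of Gabbr1 and Gabbr2 in CON and the order of the other genes therefore hold for the authors' gene models, and on exon length Gabbr1 would stand above Gabbr2. In DNP and BAC the pair at the top stood apart, with Gabbr1 at 52.4 ± 3.12 and 50.5 ± 4.40 FPKM and Gabbr2 at 34.7 ± 5.23 and 35.0 ± 0.948 FPKM.

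**Figure D1:**
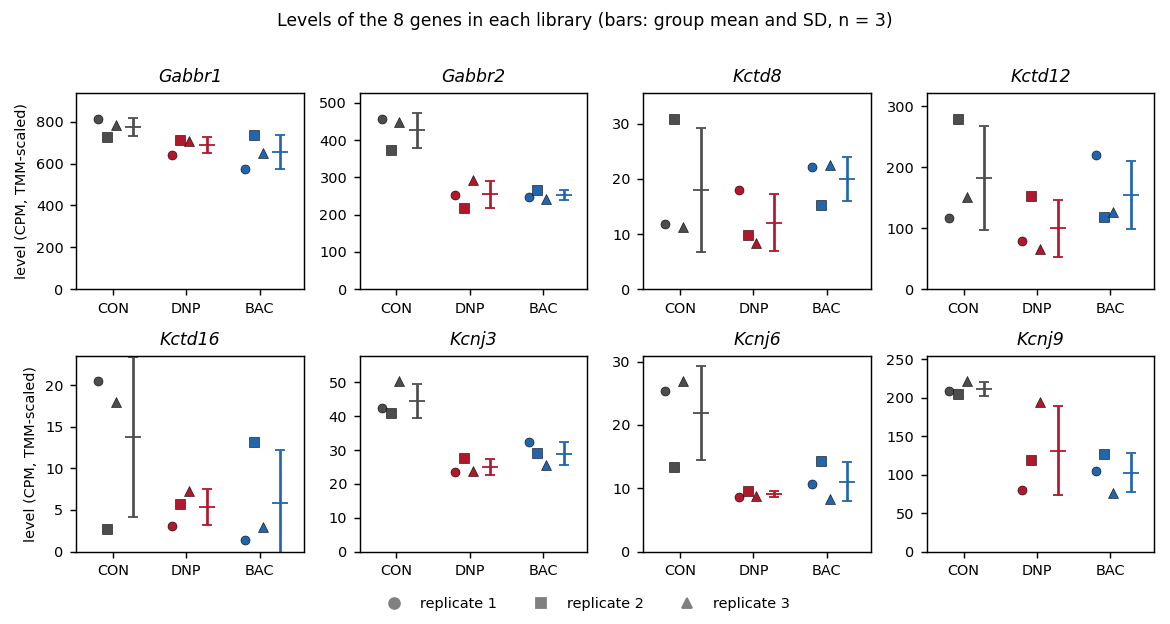
Level of each of the 8 genes (TMM-scaled CPM, linear axis from 0) in every library, by group and replicate, with group mean and SD (n = 3; the BAC bar of Kctd16 is cut at 0). For Gabbr2 and Kcnj3 every CON point lies above every DNP and BAC point, while Kctd8, Kctd12 and Kctd16 spread widely within CON.

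Gabbr1 and Gabbr2 encode the obligate pair, and in diabetic brain the level of Gabbr2 was lower by more than that of Gabbr1, a difference between them that did not pass the adjusted threshold when tested as a ratio. Gabbr2 (ENSMUSG00000039809; GRCm38 chromosome 4, 46662305 to 46991873, minus strand) was at 457, 373 and 448 CPM in CON replicates 1 to 3. It was at 252, 218 and 293 CPM in DNP. It was at 249, 267 and 243 CPM in BAC. Every diabetic library lay below every CON library, and DNP and BAC overlapped. The DNP level was 59.7% of CON, a log2 fold change of -0.75 (SE 0.16, 95% interval -1.10 to -0.39), with an unadjusted p of 0.00122 that became 0.294 after Benjamini-Hochberg adjustment over all genes (edgeR quasi-likelihood test). The count test of DESeq2 gave a like change, -0.76, with an adjusted p of 0.00247, so the call for Gabbr2 depended on the test.

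Gabbr1 (ENSMUSG00000024462; chromosome 17, 37045966 to 37075067, plus strand) was at 813, 726 and 785 CPM in CON. It was at 643, 713 and 709 CPM in DNP and at 576, 737 and 652 CPM in BAC. The DNP libraries lay below CON by a small margin, and BAC replicate 2 lay inside the CON range. The DNP level was 88.9% of CON, a log2 fold change of -0.17 (SE 0.15, 95% interval -0.50 to 0.16, edgeR adjusted p 0.701).

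The ratio of Gabbr2 to Gabbr1 within a library does not depend on how libraries are scaled against each other. Its size depends on the gene lengths the authors used, while its difference between groups does not. In FPKM it was 1.01, 0.923 and 1.02 in CON, 0.703, 0.549 and 0.740 in DNP and 0.774, 0.650 and 0.668 in BAC. All 6 diabetic libraries lay below all 3 CON libraries. The difference in mean log2 ratio between diabetic and CON libraries was -0.54 (exact two-sided permutation p 0.0238, the smallest that 6 against 3 allows, Benjamini-Hochberg adjusted p 0.381 over the 16 ratio tests). It was -0.58 for DNP and -0.50 for BAC against the same CON libraries, each with an exact permutation p of 0.1, the smallest that 3 against 3 allows. BAC and DNP differed by 0.08 (exact permutation p 0.8). In FPKM the pair summed to 107 to 117 in CON, 83.1 to 94.4 in DNP and 81.5 to 90.3 in BAC.

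**Figure D2:**
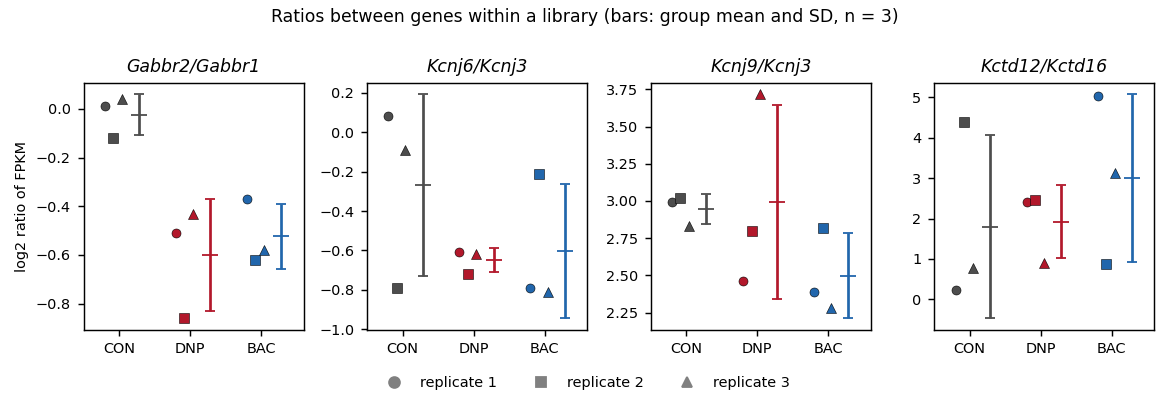
Log2 ratio of FPKM between pairs of the genes in every library, with group mean and SD (n = 3). The Gabbr2 to Gabbr1 ratio lies near 0 in CON and below it in every DNP and BAC library, whereas the ratio of Kctd12 to Kctd16 spreads over several log2 units within CON and BAC.

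Among the GIRK genes, all 3 were lower on average in diabetic brain. Kcnj3 (ENSMUSG00000026824; chromosome 2, 55435970 to 55598145, plus strand) encodes GIRK1, the subunit that pairs with the others in most neuronal channels. It was at 42.4, 40.9 and 50.4 CPM in CON, 23.4, 27.8 and 23.8 CPM in DNP and 32.3, 29.1 and 25.5 CPM in BAC. No diabetic library reached a CON library. The DNP level was 56.1% of CON, a log2 fold change of -0.83 (SE 0.15, 95% interval -1.18 to -0.49), and its unadjusted p of 0.000472 ranked 27 among all genes tested (edgeR adjusted p 0.294, DESeq2 adjusted p 0.00107). BAC was at 65.0% of CON (log2 fold change -0.62, edgeR adjusted p 0.628).

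Kcnj6 (ENSMUSG00000043301; chromosome 16, 94748636 to 94997701, minus strand) encodes GIRK2, the subunit that can form channels on its own and is strong in dopamine neurons. Its levels were 25.4, 13.4 and 26.9 CPM in CON, 8.69, 9.56 and 8.80 CPM in DNP and 10.6, 14.3 and 8.25 CPM in BAC. The 3 DNP libraries lay close together and below CON, while BAC replicate 2 exceeded CON replicate 2, the library with the highest Gabra6. DNP was at 41.2% of CON, a log2 fold change of -1.28 (SE 0.30, 95% interval -1.96 to -0.60, edgeR adjusted p 0.294, DESeq2 adjusted p 0.0168).

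Kcnj9 (ENSMUSG00000038026; chromosome 1, 172320501 to 172329318, minus strand) encodes GIRK3, a subunit that steers channels through the cell's membrane traffic. It made up 75.5 to 88.9% of the GIRK FPKM in every library. Its levels were 208, 205 and 221 CPM in CON, 79.5, 119 and 194 CPM in DNP and 104, 126 and 76.3 CPM in BAC. All diabetic libraries lay below CON, but DNP replicate 3 was only just below, and without that library the log2 fold change of DNP over CON went from -0.69 (SE 0.31, edgeR adjusted p 0.458) to -1.09. Without DNP replicate 1 it was -0.43, and with cerebellar and brainstem scores as covariates it was -0.37. BAC was at 48.4% of CON (log2 fold change -1.05, SE 0.31, edgeR adjusted p 0.628), and with those covariates its log2 fold change was -0.40. The summed dopamine neuron markers were higher in the diabetic groups, where mean Kcnj9 and Kcnj6 were lower. Within that sum, Slc6a3 and Th overlapped between diabetic and CON libraries. The part of these markers in the Kcnj9 and Kcnj6 values was not tested. The FPKM ratio of Kcnj9 to Kcnj3 was 7.96, 8.1 and 7.12 in CON, 5.51, 6.96 and 13.2 in DNP and 5.24, 7.04 and 4.85 in BAC. Every BAC library lay below CON, replicate 2 by a small margin, with a mean log2 difference of -0.45. That difference had an exact permutation p of 0.1, the smallest that 3 against 3 allows (Benjamini-Hochberg adjusted p 0.4). The lowest ratios were those of BAC replicates 3 and 1 and DNP replicate 1, the libraries with high Slc6a5. The ratio of Kcnj6 to Kcnj3 overlapped between all groups. The 3 GIRK genes summed to 37.2 to 41.2 FPKM in CON, 15.6 to 33.2 in DNP and 15.7 to 23.6 in BAC.

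The 3 KCTD genes varied widely between libraries of 1 group, and for none of them were the groups apart. Kctd12 (ENSMUSG00000098557; chromosome 14, 102976581 to 102982637, minus strand), whose protein makes the receptor response desensitise fast, was at 117, 280 and 151 CPM in CON, 79.4, 154 and 66.0 CPM in DNP and 220, 119 and 126 CPM in BAC. The groups overlapped, with CON replicate 2 and BAC replicate 1 highest. The log2 fold change of DNP over CON was -0.87 (SE 0.43, 95% interval -1.86 to 0.12, edgeR adjusted p 0.485). It ran from -1.34 without DNP replicate 2 to -0.43 without CON replicate 2, and the region covariates turned it to 0.46.

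Kctd8 (ENSMUSG00000037653; chromosome 5, 69109285 to 69341679, minus strand) encodes a KCTD protein that does not cause fast desensitisation. It was at 11.8, 30.9 and 11.2 CPM in CON, 18.0, 9.83 and 8.34 CPM in DNP and 22.2, 15.3 and 22.5 CPM in BAC. CON replicate 2 was the highest library of all, and the groups overlapped. The log2 fold change was -0.57 for DNP over CON (95% interval -1.60 to 0.45, edgeR adjusted p 0.667) and 0.06 without CON replicate 2.

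Kctd16 (ENSMUSG00000051401; chromosome 18, 40256962 to 40531630, plus strand) encodes a KCTD protein that binds GABA-B2 and, unlike KCTD12, does not cause fast desensitisation. Its levels were 20.5, 2.71 and 18.1 CPM in CON, 3.04, 5.67 and 7.29 CPM in DNP and 1.38, 13.2 and 2.96 CPM in BAC. CON replicate 2 lay below all 3 DNP libraries, so the groups overlapped. Over the 9 libraries the highest level was 14.9 times the lowest, the widest range of the 8 genes, and Gabbr1 had the narrowest at 1.41 times. The lowest value rested on 19 counts in BAC replicate 1, with an exact Poisson 95% interval of 11.4 to 29.7 counts that covers counting error only. The log2 fold change of DNP over CON was -1.36 (SE 0.91, 95% interval -3.43 to 0.70, edgeR adjusted p 0.601).

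Kctd16 and Kctd8 stood at opposite ends in libraries with a skewed regional make-up. In the 3 libraries with high Slc6a5, Kctd16 was at 1.38 to 3.04 CPM and Kctd8 at 18.0 to 22.5 CPM. In CON replicate 2, the library with the highest Gabra6, Kctd16 was at 2.71 CPM, Kctd8 at 30.9 CPM and Kctd12 at 280 CPM, the highest value of Kctd8 and of Kctd12 in any library. The ranges of Kctd16 and Kctd8 in the other 6 libraries, 2.71 to 20.5 CPM and 8.34 to 30.9 CPM, overlapped those of the 3 high in Slc6a5. That overlap came from CON replicate 2 alone. The libraries that remain without it were at 5.67 to 20.5 CPM for Kctd16 and 8.34 to 15.3 CPM for Kctd8. For both genes they lay apart from the 3 high in Slc6a5. CON replicate 2 was set aside with these values known, so that separation is not a test. Summed levels of 8 forebrain markers were low in CON replicate 2 too, at 77.98 CPM. They were at 83.65 in DNP replicate 1 and 41.33 and 46.79 in BAC replicates 1 and 3, against 491.7 to 729.3 CPM in the libraries that remain. The part of each region in these values was not tested.

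In DNP, Gabbr2, Kcnj3 and Kcnj6 were lower than in CON by about as much without those 3 libraries. With DNP replicate 1 and BAC replicates 1 and 3 left out, the log2 fold changes of DNP over CON were -0.75 for Gabbr2, -0.80 for Kcnj3 and -1.27 for Kcnj6, with edgeR adjusted p-values of 0.455, 0.447 and 0.455. That of Kcnj9 went from -0.69 to -0.44 (adjusted p 0.574), and that of Kctd16 from -1.36 to -1.10 (adjusted p 0.662). In BAC over CON, where only BAC replicate 2 remained, Gabbr2 was at -0.68 and Kcnj3 at -0.63, but Kcnj6 went from -0.99 to -0.62, Kcnj9 from -1.05 to -0.75 and Kctd16 from -1.23 to -0.0683. CON replicate 2 stayed in this fit, and the diabetic libraries kept (DNP replicates 2 and 3 and BAC replicate 2) had 0 CPM of Gabra6. Their cerebellar marker scores were -3.17, -3.33 and -3.21, against -1.34, 4 and 1.51 in CON replicates 1 to 3. The fit therefore leaves the groups unlike in cerebellar markers, and the part of these markers in the remaining differences cannot be read from it.

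Across DNP and CON, all 8 genes were lower in DNP by fitted value, beside 48.6% of all genes tested. The 8 had a median log2 fold change of -0.79 against 0.013 over all genes tested. The direction of 2 of them was not stable: Kctd8 turned to 0.29 and Kctd12 to 0.46 with the region covariates, and Kctd8 to 0.06 without CON replicate 2. No gene of the set, nor any other, reached an edgeR adjusted p under 0.05 (0% of 18501), with 2067 genes at an unadjusted p under 0.05 and 281 called by DESeq2. Of the 8 genes, 3 (Gabbr2, Kcnj3 and Kcnj6) had an unadjusted p under 0.05 and were lower, beside 5.46% of all genes that were lower and 5.71% that were higher. Groups did not overlap for 5 of the 8, all lower in DNP, beside 8.63% of all genes lower and 9.59% higher.

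With the diabetic libraries joined against CON, an unadjusted p under 0.05 was found for 4 of the 8, all lower (all genes: 5.42% lower, 6.42% higher). These were Gabbr2 at 59.5%, Kcnj3 at 60.4%, Kcnj6 at 45.6% and Kcnj9 at 54.8% of CON. With the region covariates their log2 fold changes were -0.92, -0.60, -1.51 and -0.38, against -0.75, -0.73, -1.13 and -0.87 without them. Their edgeR adjusted p-values lay from 0.295 to 0.334, with 0% of genes past 0.05, 2190 at an unadjusted p under 0.05 and 299 called by DESeq2, Gabbr2, Kcnj3 and Kcnj6 among them. Groups did not overlap for Gabbr2, Kcnj3 and Kcnj9, beside 3.13% of all genes lower and 3.82% higher.

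Baclofen-treated mice showed no detectable difference from DNP mice in any of the 8 genes. The log2 fold change of BAC over DNP was -0.01 for Gabbr2 (95% interval -0.37 to 0.35) and -0.07 for Gabbr1 (-0.40 to 0.26). It was 0.21 for Kcnj3 (-0.14 to 0.56), 0.29 for Kcnj6 (-0.38 to 0.97) and -0.36 for Kcnj9 (-1.07 to 0.35). The KCTD genes were at 0.73 for Kctd8, 0.64 for Kctd12 and 0.13 for Kctd16, with intervals that reach 1.75, 1.62 and 2.18. All groups overlapped, and the edgeR adjusted p-values were 0.998 or 0.999. These intervals bound the change of Gabbr1 and Gabbr2 more tightly than that of any KCTD gene.

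Over all genes, BAC against DNP gave 0% past an adjusted p of 0.05 in edgeR, 438 genes at an unadjusted p under 0.05 (1% lower, 1.37% higher), and 3 genes by DESeq2, none of them among the 8. Without overlap, 3.41% were lower and 3.38% higher. In BAC against CON, 4 members of the set had an unadjusted p under 0.05, Gabbr2, Kcnj3, Kcnj6 and Kcnj9, all lower (all genes: 3.3% lower, 4.46% higher). Groups did not overlap for Gabbr2, Kcnj3 and Kcnj9, beside 6.23% of all genes lower and 7.21% higher. None of the 8 passed the adjusted threshold in edgeR (0% of genes, 1436 at an unadjusted p under 0.05), and DESeq2 called 89 genes, among them Gabbr2 (log2 fold change -0.76, adjusted p 0.00672). The comparisons with CON share its 3 libraries and those with DNP share that group, so their values are not separate evidence.

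**Figure D3:**
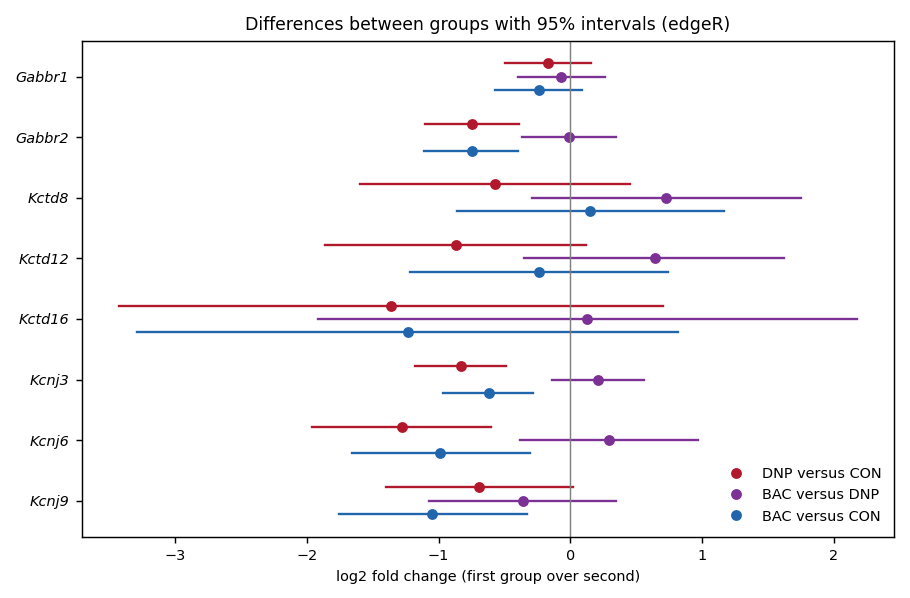
Log2 fold change of each gene with its 95% interval (edgeR, all 9 libraries in 1 fit) for the 3 comparisons. The intervals of Gabbr2, Kcnj3 and Kcnj6 lie below 0 against CON for both diabetic groups, and every interval of BAC over DNP spans 0.

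Pearson's r of log2 CPM across the 9 libraries was highest, at 0.90, between Kcnj3 and Kcnj6 and between Gabbr1 and Kctd16. It was 0.88 between Gabbr2 and Kcnj6, 0.85 between Gabbr2 and Kcnj3 and 0.83 between Gabbr2 and Kcnj9. The lowest was -0.68, between Kctd8 and Kctd16. Gabbr2, Kcnj3 and Kcnj6 were each lower on average in the diabetic libraries among these. Their r therefore restates that difference in part and is not separate evidence. For Gabbr1, Gabbr2, Kcnj3, Kcnj6 and Kcnj9, in that order, r was also taken with mean marker levels (log2 CPM, each marker centred). It was -0.56, -0.75, -0.70, -0.70 and -0.92 with midbrain dopamine neuron markers. With oligodendrocyte markers it was -0.77, -0.64, -0.80, -0.80 and -0.74. With brainstem and spinal cord markers it was -0.85, -0.48, -0.38, -0.52 and -0.80, while Spearman's rho was weaker at -0.52, -0.30, 0, -0.33 and -0.52. With forebrain markers r was 0.80, 0.36, 0.22, 0.50 and 0.61. For Kctd8, Kctd12 and Kctd16, r was -0.84, -0.38 and 0.88 with forebrain markers and 0.81, 0.64 and -0.57 with cerebellar markers. All these values describe libraries that share groups and regional make-up, and the part of dopamine neuron and oligodendrocyte markers was not tested. Of 16775 other genes searched, those most like Gabbr2 were Eif4g3 (r 0.983) and Gm26794 (0.973), and those most like Kcnj3 were Prr14l (0.964) and Ncoa2 (0.962). Kcnj6 was most like Gm7328 (0.983) and March6 (0.978), and Kcnj9 most like Chrd and Arntl (both 0.981). Gabbr1 was most like Scap (0.983) and Ankrd34a (0.965). Kctd8 was most like Sall2 (0.983) and Samd14 (0.979), Kctd12 most like Lgr4 (0.991) and Ntn4 (0.975), and Kctd16 most like M5C1000I18Rik (0.991) and Gm12216 (0.989).

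Gm26794 lies opposite Kcnj3 and shares 1621 exon bases with it, and Gm26778 shares 3805 exon bases with Kctd12 on the opposite strand. Fewer opposite-strand exon bases were shared by Kcnj6 (Gm41505, 380), Kctd16 (AC098707.1, 360), Kcnj9 (Gm36937, 172) and Kctd8 (Gm24368, 106). The libraries do not mark strand, so reads of such pairs cannot be told apart.

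Outside the 8 genes, the machinery around the receptor was mixed. Of 72 genes in 7 lists of pathway partners, 71 were tested, and in DNP against CON 40 were lower and 31 higher, with 10 lower and 0 higher at an unadjusted p under 0.05 and none past the adjusted threshold. Over all genes tested, 48.6% were lower by fitted value, and 5.46% were lower and 5.71% higher at that p. The 13 G protein subunit genes had a median log2 fold change of 0.03 with no gene at an unadjusted p under 0.05, and their smallest p-values belonged to the gamma subunit genes Gng4 (1.40) and Gng3 (0.33). Regulators of G protein signalling had 5 of 9 lower, led by Gpr158 (-0.63, SE 0.18) and Rgs8 (-2.12, SE 0.82). Gpr158 encodes a receptor that anchors some of these regulators, and Rgs8 is a gene of cerebellar Purkinje cells.

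Effectors were lower at a few genes. Adenylyl cyclase genes Adcy1 (-1.88, SE 0.43) and Adcy9 (-0.97, SE 0.24) had edgeR adjusted p-values of 0.294, while the median of the 11 cyclase and protein kinase A genes was 0.03. Of 5 presynaptic calcium channel genes 4 were lower, with Cacna1a, the P/Q-type pore subunit, at -1.23 (SE 0.40) and Cacnb4 at -0.81 (SE 0.23). Of 12 receptor binding and trafficking genes tested 8 were lower, with Mpdz at -0.46 and App at -0.23. The 10 cerebellar markers were also lower in DNP by fitted value, with a median log2 fold change of -3.02 and summed levels of 272.5 to 7463 CPM in CON and 214.6 to 793.9 CPM in DNP. Their part in the values of these partner genes was not tested.

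Other receptors that open GIRK channels were lower for 9 of 13 genes, with the cannabinoid receptor gene Cnr1 at -1.25 (SE 0.34, edgeR adjusted p 0.325) and the muscarinic receptor gene Chrm2 at 1.17 (SE 0.55). The 8 other inwardly rectifying potassium channel genes had a median of 0.20, against -0.79 in the 8 genes followed here, with Kcnj12 at -1.70 (SE 0.71) and Kcnj11, a subunit of the ATP-sensitive channel, at -0.29. In BAC against DNP none of the 71 genes had an unadjusted p under 0.05 (all genes: 1% lower, 1.37% higher). By fitted value 34 were lower and 37 higher, beside 51.9% of all genes lower.

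**Figure D4:**
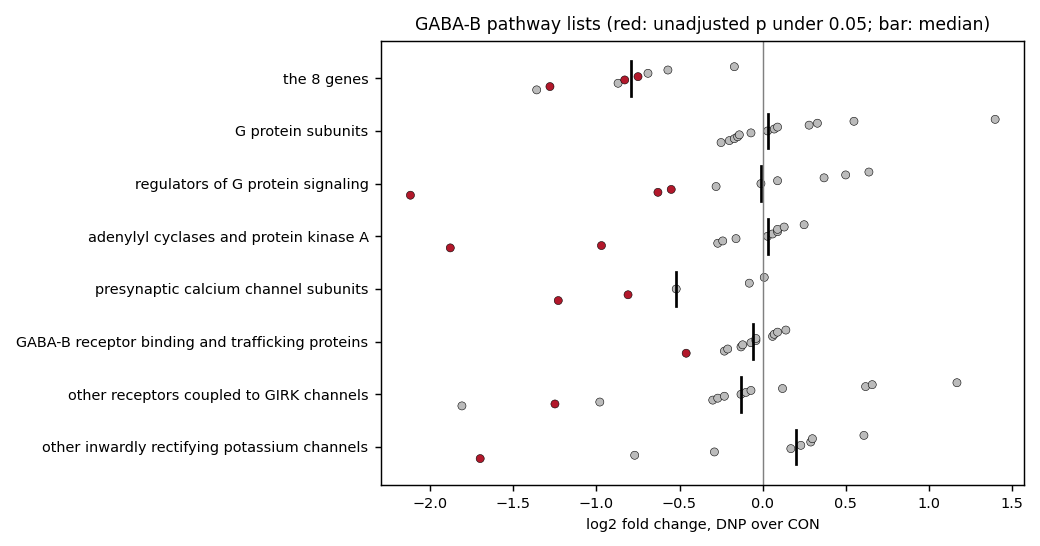
Log2 fold change of DNP over CON for the 8 genes and for the 7 lists of pathway genes, each point 1 gene, with red for an unadjusted edgeR p under 0.05 and a bar at the list median. The 8 genes all lie below 0, and the medians of the G protein, cyclase and other potassium channel lists lie near or above 0.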

How the data were processed

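Poly(A) RNA of whole brain was sequenced from 3 CON, 3 DNP and 3 BAC mice without strand marking. The authors cleaned the reads with fastp, aligned them to GRCm38 with HISAT2 2.1.0 and deposited unnormalized counts per gene from StringTie 1.3.3b. The authors also deposited FPKM values, which equalled count over gene length and library total (lengths agreed between libraries within a ratio of 1.000018 over 12216 genes) and carried no TMM factor.

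Counts were tested with the quasi-likelihood test of edgeR 4.0.16 after TMM and filterByExpr (minimum count 10), with all 9 libraries in 1 fit on group, Benjamini-Hochberg adjustment over 18501 genes and a threshold of 0.05. Levels are TMM-scaled CPM, and SEs and 95% intervals come from that fit. FPKM ratios were tested with exact permutation tests. DESeq2 1.42.0 and limma 3.58.1 on log2(FPKM + 1) were alternatives. Region markers, replicate numbers and left-out libraries were further alternatives. Only the edgeR test of DNP against CON was tried on simulated counts, with the same biological variation set for every gene. DESeq2, limma and the ratio tests were not tried on simulated counts. No pair of libraries within a group agreed within sampling noise, with a chi-square per degree of freedom of at least 15.7 over the 9 pairs. Replicate numbers did not pair the libraries (correlations of deviations from -0.58 to 0.56). Depth was 13107382 to 16008129 counts.

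Named beside the 8 genes were the 2 genes of smallest p in DNP against CON of each pathway list, any gene past the threshold, and the 2 genes of mean CPM of at least 1 with the highest Pearson r to each of the 8. The genes and lists were chosen with earlier results of these data known. A result on the regional make-up of the libraries is not reported here. Jakmip1 has 2 entries in the table and was not used.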

Additional observations from a re-analysis of the deposited data

How the results depend on the processing

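No alternative gave any of the 8 genes an adjusted p under 0.05 except DESeq2, which called Gabbr2 (-0.76), Kcnj3 (-0.85) and Kcnj6 (-1.30) in DNP versus CON, Gabbr2 (-0.76) in BAC versus CON, and Gabbr2 (-0.76), Kcnj3 (-0.74) and Kcnj6 (-1.14) in diabetic versus CON. That made 3 of 281, 1 of 89 and 3 of 299 genes called, and 0 of 3 in BAC versus DNP. The cause was not tested. Gabbr2 in BAC versus DNP turned from -0.01 to 0.0047 (DESeq2), 0.0044 (RLE size factors), 0.0112 (library totals), 0.0155 (no filter), 0.0209 and 0.0217 (limma with 1 and 0.1 added), and Kctd16 to -0.20 and -0.36 in limma. With the replicate block Gabbr2 was at 0.0027 and Kctd16 at -0.0332 in BAC versus DNP, and no call changed. With cerebellar and brainstem scores as covariates, DNP versus CON gave 0.29 for Kctd8 and 0.46 for Kctd12, diabetic versus CON 0.48 and 0.69, BAC versus CON 0.91 for Kctd12 and -0.40 (from -1.05) for Kcnj9, and BAC versus DNP 0.0218 for Gabbr1 and 0.0438 for Gabbr2.

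Without DNP replicate 1 and BAC replicates 1 and 3, which left BAC with 1 library assumed to vary like the other groups, Gabbr1 (0.0544) and Gabbr2 (0.067) turned in BAC versus DNP and Kctd8 (-0.24) in BAC versus CON.

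With 1 library left out at a time, in turn, these log2 fold changes crossed 0: Kctd8 from -0.98 to 0.0609 in DNP versus CON, from -0.094 to 0.80 in BAC versus CON and from -0.46 to 0.43 in diabetic versus CON, turned in DNP and diabetic versus CON by leaving out CON replicate 2 and in BAC versus CON by leaving out CON replicate 1 or 3. Kctd12 ran from -0.58 to 0.21 in BAC versus CON (turned without CON replicate 2). In BAC versus DNP, Gabbr1 ran from -0.17 to 0.0153, Gabbr2 from -0.10 to 0.10, Kctd16 from -1.29 (without BAC replicate 2) to 0.60 and Kcnj9 from -0.61 to 0.0408 (without DNP replicate 3). The differences in log2 ratio ran from -0.66 to 1.43 (DNP versus CON) and -0.12 to 1.97 (diabetic versus CON) for Kctd12 to Kctd16, from -0.32 to 0.31 for Kcnj9 to Kcnj3 in DNP versus CON, and in BAC versus DNP from -0.0537 to 0.16 for Gabbr2 to Gabbr1 and from -0.15 to 0.15 for Kcnj6 to Kcnj3. The count of all genes called ran from 0 to 1 in each comparison with CON, the gene being Sesn3 without CON replicate 1, B3galt1 without CON replicate 2 or mt-Ts2 without CON replicate 3. The 3 genes that DESeq2 called in BAC versus DNP were Styx, Bloc1s6 and Mpzl2. These names were added after their values were seen. Precision is limited by 3 libraries in a group that vary widely, with a common biological coefficient of variation of 36.5%, and for Kctd16 also by low counts.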
